A study of Callithrix jacchus with 54 samples.

Results

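Fibroblast growth factor (FGF) ligands and the genes that report and restrain the ERK kinase downstream of them were followed in cells of the common marmoset, from embryonic stem cells (cjESCs) to germ cells in reconstituted ovaries. Members were taken by symbol from a list of 10 genes, and 9 of them were rows of the table of 14812 genes. These were the ligands FGF2 (gene 118152209), FGF7 (100405886), FGF8 (118146090) and FGF17 (100401797), the feedback inhibitors SPRY2 (100409423) and SPRY4 (100391285), the ERK phosphatase DUSP6 (100409879), and the ETS transcription factors ETV4 (100394722) and ETV5 (100411591). FGF4 is not analysed here. All 9 were among the 11197 genes that reached log2(TPM + 1) of 1.5 in at least 1 library, FGF7 only through PESFA and Pre libraries. The list was chosen with earlier results of these data known, so counts and medians over it are a description.

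RNA-seq covered 27 conditions with 2 libraries each, 54 in all, and every cell came from the line CMES40 carrying BLIMP1-tdTomato and NANOS3-eGFP reporters. A derivative that was a picked clone with the transgenes rtTA; tetO-BLIMP1; SOX17-GR; DD-TFAP2C (TG+), was kept in DK20FA medium and induced in BLSE, which holds BMP4, LIF, SCF, EGF and a ROCK inhibitor. In SOX17+BLSE, dexamethasone was added to drive SOX17-GR, and SOX17+LSE was the same without BMP4. Cells labelled wild type, without transgenes (TG−), were kept in PESFA medium, and treated for 24 h with IM12, an activator of WNT signalling, and activin A (Pre). They were then induced in BLSE with the WNT inhibitor IWR1, with or without BMS493 (BMS), which blocks retinoic acid receptors. Each of the 5 inductions was sampled at 12, 24, 48 and 96 h, BLSE+IWR1 also at day 6, and day 6 cells were aggregated with mouse gonadal somatic cells into xrOvaries. These xrOvaries were sampled at days 20, 40 and 70. Per the study's methods they were cultured first with retinoic acid and then in media with serum. These media listed no BMP4, LIF, SCF, EGF or IWR1. Both maintenance media contained FGF2 protein (bFGF) and activin A, whereas the induction media listed no FGF and supplied EGF and SCF, which also act through receptor tyrosine kinases. The pre-treatment medium listed no FGF either, so the DK20FA and Pre starting cells also differ in added FGF2 protein. cjESCs and Pre cells were sorted for TRA-1-60 away from mouse feeder cells, and 12, 24 and 48 h samples and BLSE at 96 h were all cells of the aggregate. All other 96 h, day 6 and xrOvary samples were sorted for tdTomato. These include SOX17+LSE at 96 h, which the labels call differentiated cells. Line, maintenance medium and pre-treatment differ together between the TG+ and TG− samples and cannot be told apart, nor can SOX17 and dexamethasone.

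FGF ligands bind receptor tyrosine kinases with heparan sulfate as a co-factor, and the RAS–RAF–MEK–ERK cascade below them switches on a small set of response genes. Among these are the sprouty proteins SPRY2 and SPRY4, which damp receptor signalling, DUSP6, which dephosphorylates ERK in the cytoplasm, and the PEA3-type ETS factors ETV4 and ETV5. Their RNA is widely read as a sign of FGF and ERK activity. FGF2 maintains primed primate pluripotent stem cells in culture, FGF8 and FGF17 belong to a subfamily expressed in the primitive streak and early mesoderm, and FGF7 is made by mesenchymal cells. ETV5 is also known from the male germ line, where it is needed to keep spermatogonial stem cells.

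Levels are given in TPM, transcript abundance per length scaled to a common total. Differences are log2 fold changes (log2FC) of TPM + 1 with their standard error after ±, from a limma model of all 54 libraries with Benjamini-Hochberg adjustment over 11197 genes. A gene is said to have risen or fallen at an adjusted p under 0.01. TPM summed to between 790300 and 839203 per library, 10146 to 12688 genes were above 0, and Pearson's r between replicates across genes was 0.977 to 0.994. The study calls the libraries biological duplicates, and with 2 libraries a condition the p-values rest on the spread pooled over conditions. In cells sorted or collected in bulk, fewer expressing cells and less RNA per cell cannot be told apart. The sums of TPM over 6 PGC markers were 2398 to 3377 in the 8 tdTomato-positive libraries at 96 h, against 256 to 289.55 in BLSE at 96 h, all cells. PRDM1 (BLIMP1), the gene of the tdTomato reporter, is 1 of the 6, so this difference is partly set by the sort.

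**Figure D1:**
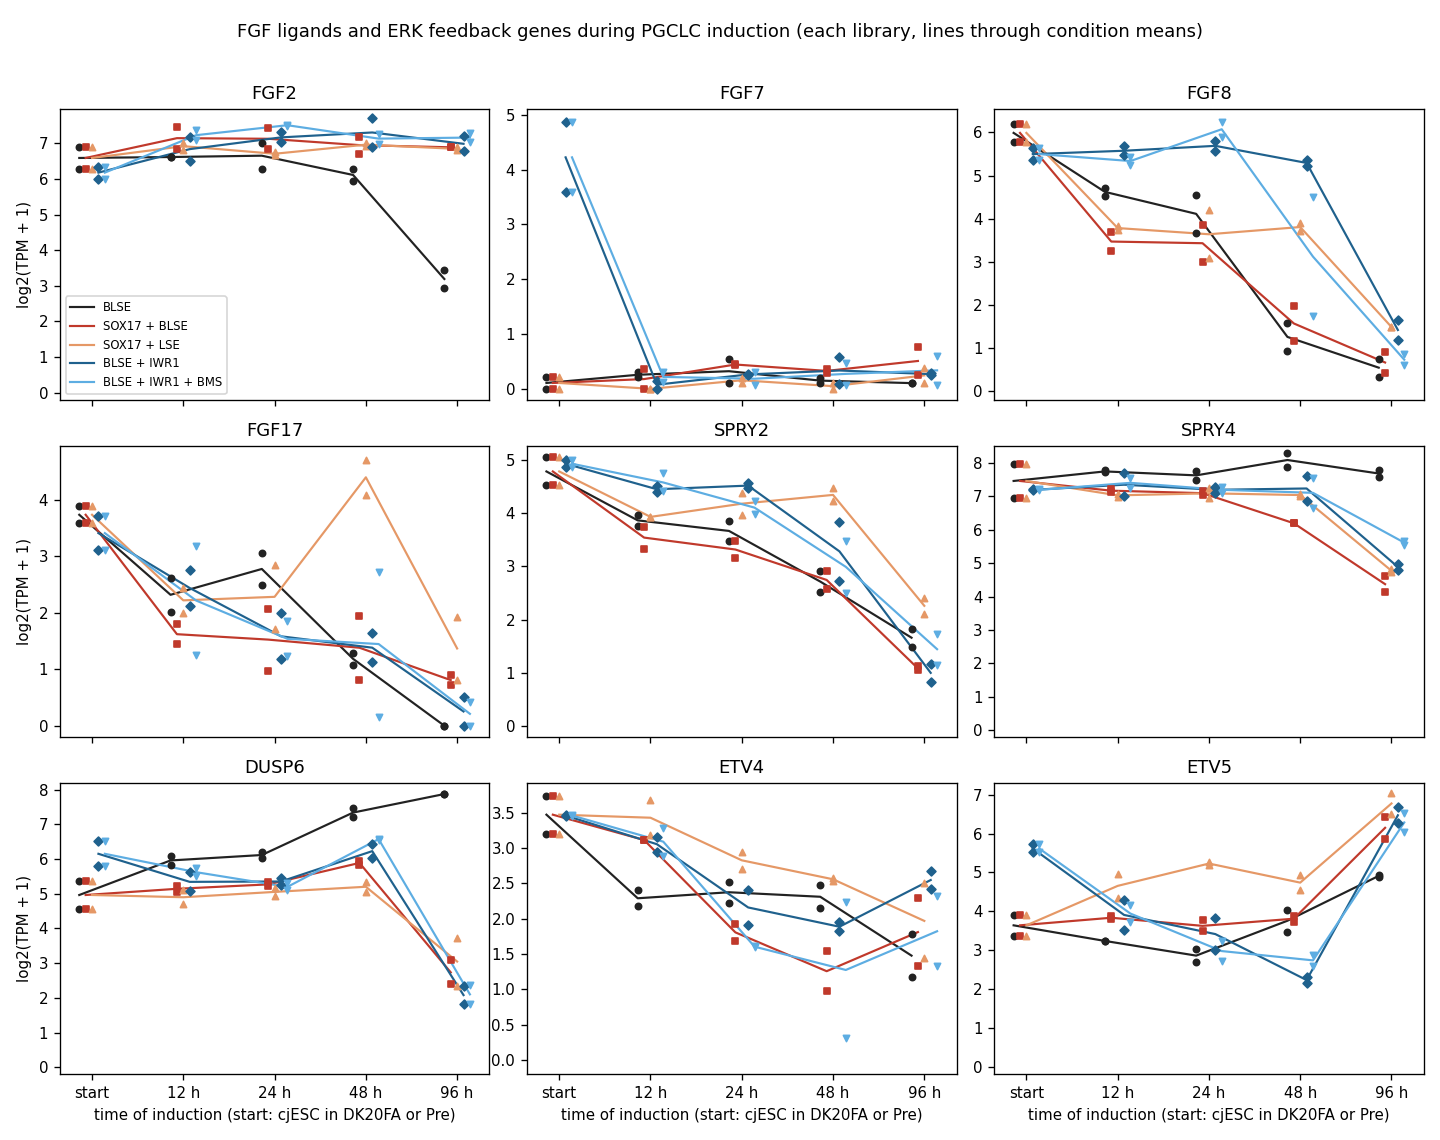
Levels of the 9 genes as log2(TPM + 1) (y axis) at the start and at 12, 24, 48 and 96 h (x axis) in 5 inductions, where points are single libraries and lines join condition means. The start is cjESC in DK20FA for BLSE, SOX17+BLSE and SOX17+LSE, and Pre for both IWR1 conditions. FGF2 fell in BLSE only at 96 h, while DUSP6 and SPRY4 stayed high in BLSE at 96 h and lay lower in the other 4 conditions, in which ETV5 lay higher.

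FGF2 had the highest level of the 4 ligands in every library, and of the 3 inductions tested against their starting cells only BLSE, without SOX17 or IWR1, lowered it. It stood at 118 and 77.4 TPM in cjESCs in DK20FA and at 61.1 and 76.4 TPM after 48 h in BLSE, and at 6.62 and 9.98 TPM at 96 h. Both 96 h libraries lay below every other library of the study, the next being xrOvary at day 40 with 27.3 TPM. The fall against DK20FA was called (log2FC −3.40 ± 0.25, adjusted p = 1.21e-13), as was the fall from 48 h (log2FC −2.92 ± 0.25, adjusted p = 4.41e-11). At the same time FGF2 was at 118 and 118 TPM in SOX17+BLSE and at 118 and 111 TPM in SOX17+LSE. BLSE+IWR1 held 109 and 147 TPM, and BLSE+IWR1+BMS 156 and 130.0 TPM. Against BLSE it was thus higher in SOX17+BLSE (log2FC 3.70 ± 0.25, adjusted p = 5.52e-15) and in BLSE+IWR1 (log2FC 3.80 ± 0.25, adjusted p = 3.12e-15). Libraries did not overlap in either case, and those cells were sorted while the BLSE cells were not. The summed TPM of the 6 pluripotency markers moved with FGF2 here. At 96 h the sums were 249 to 253 TPM in BLSE and 7005 to 8351 TPM in SOX17+BLSE and BLSE+IWR1. In each of these comparisons with BLSE, 4 of the 6 markers were called higher and 0 lower. The part of these markers in the result was not tested.

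From Pre, FGF2 rose in BLSE+IWR1, from 80.6 and 63.5 TPM to 129.9 and 158 TPM at 24 h (log2FC 0.99, adjusted p = 0.00503) and 118 and 211 TPM at 48 h (log2FC 1.13, adjusted p = 0.000736). At 96 h its log2FC was 0.81 (adjusted p = 0.00759). These rises were small, and each call was lost when single libraries were left out. The call at 24 h was lost without Pre replicate 2 (adjusted p = 0.113), BLSE+IWR1 24 h replicate 1 (adjusted p = 0.0167) or BLSE+IWR1 24 h replicate 2 (adjusted p = 0.0769). The call at 48 h was lost without Pre replicate 2 (adjusted p = 0.0271) or BLSE+IWR1 48 h replicate 2 (adjusted p = 0.0656). That at 96 h was lost without Pre replicate 1 (adjusted p = 0.0102), Pre replicate 2 (adjusted p = 0.1) or BLSE+IWR1 96 h replicate 2 (adjusted p = 0.122). Against BLSE at 48 h the difference was 1.19 (adjusted p = 0.000343), lost without BLSE 48 h replicate 1 (adjusted p = 0.0131) or BLSE+IWR1 48 h replicate 2 (adjusted p = 0.0402). In cjESCs FGF2 was at 56.8 and 52 TPM in PESFA, below DK20FA without overlap, and the difference missed the threshold (log2FC −0.80 ± 0.25, adjusted p = 0.0164). The RefSeq annotation of assembly calJac240 places NUDT6 across FGF2, at 2.8 to 33.3 TPM over the libraries, and the counting settings for strand are not given in the sources used here.

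FGF8 RNA was high in cjESCs and fell in BLSE, SOX17+BLSE and BLSE+IWR1, in the last only at 96 h, in tdTomato-positive cells. It stood at 72.1 and 54.2 TPM in DK20FA and fell in BLSE to 11.8 and 22.4 TPM at 24 h, 0.92 and 1.98 TPM at 48 h and 0.26 and 0.69 TPM at 96 h. The log2 fold changes against DK20FA were −1.88 (adjusted p = 0.00467), −4.73 (adjusted p = 8.54e-10) and −5.44 (adjusted p = 1.11e-11). In SOX17+BLSE it was at 11.9 and 8.48 TPM as early as 12 h (log2FC −2.52, adjusted p = 0.000243) and at 0.33 and 0.89 TPM at 96 h (log2FC −5.32, adjusted p = 1.46e-11). The call in BLSE at 24 h was lost without DK20FA replicate 1 (adjusted p = 0.0644), DK20FA replicate 2 (adjusted p = 0.0139) or BLSE 24 h replicate 1 (adjusted p = 0.0825). The call in SOX17+BLSE at 12 h was lost without SOX17+BLSE 12 h replicate 2 (adjusted p = 0.0106). In BLSE+IWR1 FGF8 was still at 40.0 and 36.5 TPM at 48 h, near the 40.0 and 48.8 TPM of Pre, and at 2.15 and 1.27 TPM at 96 h. The drop between 48 and 96 h was called (log2FC −3.87 ± 0.48, adjusted p = 3.3e-08), and at 48 h BLSE+IWR1 exceeded BLSE (log2FC 4.03 ± 0.48, adjusted p = 3.82e-08). For the drop, time and sort cannot be told apart, as the 48 h libraries were all cells. Between BLSE+IWR1 and BLSE the line, maintenance medium and pre-treatment differed too.

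In SOX17+LSE, the medium without BMP4, FGF8 was at 12.1 and 13.9 TPM at 48 h, against 1.25 and 2.92 TPM in SOX17+BLSE (log2FC −2.24 ± 0.48, adjusted p = 0.00106). FGF17, the close relative of FGF8, differed in the same comparison. It was at 25.3 and 16 TPM in SOX17+LSE at 48 h, the 2 highest FGF17 values of the study, and at 0.76 and 2.86 TPM in SOX17+BLSE (log2FC −3.02 ± 0.58, adjusted p = 0.000266). The feedback inhibitor SPRY2 was at 21.1 and 17.7 TPM and 6.59 and 4.94 TPM respectively (log2FC −1.60 ± 0.30, adjusted p = 0.000213). So 2 ligands and 1 inhibitor were higher without BMP4 at 48 h, with no overlap of libraries, in cells that had not been sorted. In the same comparison 4 of 6 PGC markers were higher with BMP4 (sums of 1715 to 1721 TPM against 981 to 1013 TPM), and of 6 pluripotency markers 4 were lower and 1 higher (4837 to 5262 TPM against 3352 to 4144 TPM). Of 6 mesoderm markers 2 were lower and 1 higher with BMP4 (1239 to 1271 TPM against 1260 to 1342 TPM). The part of these markers in the result was not tested. With a pseudocount of 0.1 none of the 3 genes was called at 48 h (adjusted p = 0.0115 for FGF8, 0.0319 for FGF17 and 0.0308 for SPRY2). The FGF8 call was lost without SOX17+BLSE 48 h replicate 1 (adjusted p = 0.0503), SOX17+LSE 48 h replicate 1 (adjusted p = 0.0103) or SOX17+LSE 48 h replicate 2 (adjusted p = 0.0197). The FGF17 call was lost without SOX17+BLSE 48 h replicate 1 (adjusted p = 0.0246) or SOX17+LSE 48 h replicate 1 (adjusted p = 0.0127), and the SPRY2 call without SOX17+BLSE 48 h replicate 2 (adjusted p = 0.0111). FGF17 then fell in SOX17+LSE to 2.79 and 0.76 TPM at 96 h (log2FC −3.03 ± 0.58, adjusted p = 0.000118), and FGF8 to 1.8 and 1.81 TPM (log2FC −2.32 ± 0.48, adjusted p = 0.000336). The 96 h cells were tdTomato-positive, so time and sort cannot be told apart.

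FGF17 started at 13.8 and 11 TPM in DK20FA and was listed at 0 in both libraries of BLSE at 96 h. It fell in BLSE at 48 h, to 1.45 and 1.11 TPM (log2FC −2.55, adjusted p = 0.000792), a call lost without DK20FA replicate 1 (adjusted p = 0.0146) or BLSE 48 h replicate 2 (adjusted p = 0.0128). In SOX17+BLSE its levels were 2.47 and 1.73 TPM at 12 h and 0.64 and 0.87 TPM at 96 h, with falls called at all 4 times. Their log2FC were −2.12, −2.21, −2.36 and −2.93 (largest adjusted p = 0.00925). Of these 4 falls only that at 96 h was called without each library in turn. The fall at 12 h was lost without DK20FA replicate 1 (adjusted p = 0.08), DK20FA replicate 2 (adjusted p = 0.0316), SOX17+BLSE 12 h replicate 1 (adjusted p = 0.0309) or SOX17+BLSE 12 h replicate 2 (adjusted p = 0.0886). The fall at 24 h was lost without DK20FA replicate 1 (adjusted p = 0.0446), DK20FA replicate 2 (adjusted p = 0.016) or SOX17+BLSE 24 h replicate 2 (adjusted p = 0.103). The fall at 48 h was lost without DK20FA replicate 1 (adjusted p = 0.0203) or SOX17+BLSE 48 h replicate 1 (adjusted p = 0.0576). From Pre, at 12.1 and 7.64 TPM, FGF17 fell in BLSE+IWR1 to 2.12 and 1.18 TPM at 48 h (log2FC −2.03, adjusted p = 0.00741) and 0.42 and 0 TPM at 96 h (log2FC −3.16, adjusted p = 2.36e-05). The 48 h call was lost without Pre replicate 1 (adjusted p = 0.0796), Pre replicate 2 (adjusted p = 0.0197), BLSE+IWR1 48 h replicate 1 (adjusted p = 0.0164) or BLSE+IWR1 48 h replicate 2 (adjusted p = 0.0647).

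FGF7, a ligand of epithelial FGF receptors, was above 0.70 TPM only in PESFA and Pre libraries. It was at 34.4 and 48.2 TPM in cjESCs in PESFA and at 11 and 28.1 TPM in Pre, against 0.16 and 0 TPM in DK20FA (log2FC 5.28 ± 0.26). In every other library it was between 0 and 0.70 TPM, and 9 libraries were listed at 0. At 12 h of BLSE+IWR1 it was at 0 and 0.11 TPM (log2FC −4.15 ± 0.26 against Pre). Since FGF7 passed the filter on low values only through the PESFA and Pre libraries, its differences from them are a description. The 8 fibroblast markers moved with FGF7, with sums of 1929 to 3096 TPM in PESFA and 2540 to 4889.51 TPM in Pre. Their sums were 216 to 252 TPM in DK20FA and 151 to 226 TPM in BLSE+IWR1 at 12 h, and 7 of the 8 were called higher in PESFA than in DK20FA. Of the 2 PESFA libraries that with the lower marker sum held more FGF7, and of the 2 Pre libraries that with the higher sum, 4889.51 against 2540 TPM, held more, 28.1 against 10.99 TPM. In BLSE at 96 h the markers summed to 1172 to 1839.93 TPM with FGF7 at 0.07 and 0.08 TPM. The part of fibroblast RNA in the FGF7 result was not tested. FAM227B overlaps FGF7 in the same RefSeq annotation and was at 0 to 2.66 TPM.

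**Figure D2:**
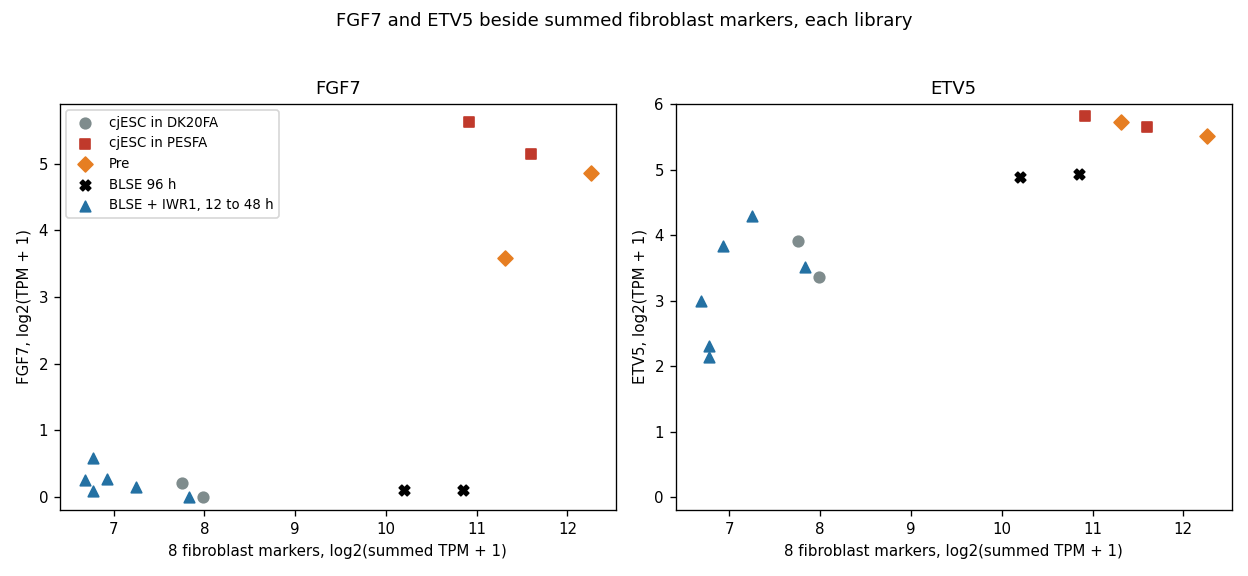
FGF7 (left) and ETV5 (right) as log2(TPM + 1) (y axes) against the log2 of the summed TPM of 8 fibroblast markers (x axes), 1 point per library, for cjESCs in each medium, Pre, BLSE at 96 h and BLSE+IWR1 at 12 to 48 h. PESFA and Pre libraries, with sums of at least 1929 TPM, hold FGF7 at 10.99 to 48.2 TPM, whereas BLSE at 96 h, at 1172 TPM or more, holds FGF7 at 0.07 and 0.08 TPM.

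Among the 4 listed ligands, the make-up of the RNA went from a mixture to FGF2 almost alone. Other FGF ligands are left out of this share, such as FGF4 and also FGF10, at a mean of 4.75 TPM in SOX17+BLSE at 96 h. Of the summed TPM of the 4 ligands, FGF2 took 57.8% and 54.3% in DK20FA and FGF8 35.4% and 38.0%. In Pre, the start of BLSE+IWR1, FGF2 took 56.1% and 42.9% and FGF8 27.8% and 33.0%. FGF7, which moved with the fibroblast markers, was at 10.99 and 28.07 TPM in Pre. In tdTomato-positive cells of SOX17+BLSE at 96 h the share of FGF2 was 99.0% and 98.0%, in BLSE+IWR1 97.5% and 99.0%, and at day 6 99.6% and 98.9%. These sums were 119 and 120.2 TPM in SOX17+BLSE, 111 and 148 TPM in BLSE+IWR1 and 108 and 118.5 TPM at day 6. In BLSE, all cells, FGF2 also took 96.1% and 96.0% at 48 h, of 63.6 and 79.6 TPM. At 96 h it took 95.1% and 92.9% there, but of only 6.96 and 10.7 TPM. Its share in the xrOvary libraries ran from 87.6% to 98.1%.

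The sprouty genes parted from each other, since SPRY2 fell in BLSE, SOX17+BLSE and BLSE+IWR1, and no fall of SPRY4 was called in BLSE. SPRY2 went from 32 and 21.9 TPM in DK20FA to 6.57 and 4.71 TPM at 48 h (log2FC −2.07, adjusted p = 1.27e-06) and 2.56 and 1.82 TPM at 96 h of BLSE (log2FC −3.12 ± 0.30, adjusted p = 9.71e-11). In SOX17+BLSE it was at 6.59 and 4.94 TPM at 48 h (log2FC −2.04, adjusted p = 1.29e-06) and 1.18 and 1.07 TPM at 96 h (log2FC −3.70 ± 0.30, adjusted p = 1.05e-12). The 96 h libraries of both conditions lay below all DK20FA libraries. From 30.8 and 28.1 TPM in Pre it fell to 5.63 and 13.3 TPM at 48 h (log2FC −1.64, adjusted p = 6.2e-05) and 0.78 and 1.26 TPM at 96 h of BLSE+IWR1 (log2FC −3.92 ± 0.30, adjusted p = 3.04e-13). The 48 h call was lost without BLSE+IWR1 48 h replicate 1 (adjusted p = 0.0141). Earlier falls were smaller, with a log2FC of −1.12 in BLSE at 24 h (adjusted p = 0.00721). In SOX17+BLSE at 12 and 24 h it was −1.24 (adjusted p = 0.00331) and −1.46 (adjusted p = 0.000337). The call in BLSE was lost without DK20FA replicate 1 (adjusted p = 0.142), BLSE 24 h replicate 1 (adjusted p = 0.0123) or BLSE 24 h replicate 2 (adjusted p = 0.109). Those in SOX17+BLSE were lost at 12 h without DK20FA replicate 1 (adjusted p = 0.0893) or SOX17+BLSE 12 h replicate 2 (adjusted p = 0.0763), and at 24 h without DK20FA replicate 1 (adjusted p = 0.0204) or SOX17+BLSE 24 h replicate 1 (adjusted p = 0.0116). At 96 h SPRY2 was at 4.34 and 3.31 TPM in SOX17+LSE, above SOX17+BLSE (log2FC −1.18, adjusted p = 0.00688), a call lost without any 1 of the 4 libraries (adjusted p up to 0.088).

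SPRY4 was the most abundant of the 9 RNAs in cjESCs, at 249 and 123 TPM in DK20FA and 155 and 227 TPM in PESFA. In BLSE it was at 235 and 312 TPM at 48 h and 191 and 218 TPM at 96 h, within or above the DK20FA range, and no difference from DK20FA was called at any of the 4 times. In SOX17+BLSE it was at 72.2 and 72.2 TPM at 48 h and 23.5 and 16.5 TPM at 96 h. Against BLSE it was lower both at 48 h (log2FC −1.89 ± 0.26, adjusted p = 6.31e-07), when all cells were taken, and at 96 h (log2FC −3.31 ± 0.26, adjusted p = 2.33e-13). Against DK20FA the log2 fold changes were −1.26 at 48 h (adjusted p = 0.000182) and −3.09 at 96 h (adjusted p = 2.31e-12). The first was lost without DK20FA replicate 1 (adjusted p = 0.0467). BLSE+IWR1 kept SPRY4 at 114 and 195 TPM until 48 h and held 26.5 and 30.8 TPM at 96 h (log2FC −2.31 ± 0.26, adjusted p = 2.76e-09 against Pre). At 96 h it lay below BLSE (log2FC −2.80 ± 0.26, adjusted p = 1.98e-11). RefSeq places an unnamed locus across SPRY4, which is not a row of the table.

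On the log2(TPM + 1) scale DUSP6 had the widest range of the 9 genes, rising in BLSE and almost disappearing from tdTomato-positive cells. It was at 40.2 and 22.6 TPM in DK20FA, 55.6 and 67.2 TPM at 12 h, 146 and 176 TPM at 48 h and 233 and 233 TPM at 96 h of BLSE. The 96 h values were its highest in the study. The rises at 48 h (log2FC 2.37 ± 0.34, adjusted p = 1.07e-06) and 96 h (log2FC 2.91 ± 0.34, adjusted p = 9.43e-09) were called, and neither was lost without any 1 library. In SOX17+BLSE DUSP6 was at 60.2 and 56.1 TPM at 48 h and 4.23 and 7.46 TPM at 96 h. The gap to BLSE was −1.45 at 48 h (adjusted p = 0.00155), lost without BLSE 48 h replicate 2 (adjusted p = 0.0301), SOX17+BLSE 48 h replicate 1 (adjusted p = 0.0118) or SOX17+BLSE 48 h replicate 2 (adjusted p = 0.02). At 96 h it was wider (log2FC −5.14 ± 0.34, adjusted p = 3.19e-15), and DUSP6 had then fallen below DK20FA (log2FC −2.23 ± 0.34, adjusted p = 1.22e-06). In BLSE+IWR1 it was at 64.1 and 85.1 TPM at 48 h, in the range of Pre (54.3 and 90.0 TPM), and at 2.54 and 4.05 TPM at 96 h. That was below Pre (log2FC −4.07 ± 0.34, adjusted p = 3.18e-12) and below BLSE (log2FC −5.79 ± 0.34, adjusted p = 1.45e-16). The 96 h comparisons against BLSE set sorted against unsorted cells. The 6 mesoderm markers summed to 1344 and 1436 TPM in BLSE at 96 h and to 525 to 717 TPM in SOX17+BLSE and BLSE+IWR1. In each comparison with BLSE 4 of the 6 were called lower and 1 higher. Within BLSE their sum was higher at 48 h, at 2001 to 2027 TPM, when DUSP6 was lower than at 96 h. Their part in the result was not tested.

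Between 48 and 96 h ETV5 rose in the 4 inductions in which DUSP6 and SPRY4 fell, and its paralogue ETV4 did not pass the test there. In these 4 the 48 h libraries were all cells and the 96 h libraries tdTomato-positive cells. In BLSE+IWR1 ETV5 was at 10.5 and 18.6 TPM at 12 h, 6.95 and 13.2 TPM at 24 h, 3.97 and 3.41 TPM at 48 h and 101 and 76.2 TPM at 96 h, with the lowest condition mean of the study at 48 h. The rise from 48 to 96 h was called (log2FC 4.25 ± 0.27, adjusted p = 3.55e-15). ETV5 also rose from 48 to 96 h in BLSE+IWR1+BMS (log2FC 3.55 ± 0.27, adjusted p = 3.35e-13). It rose in SOX17+BLSE (log2FC 2.34 ± 0.27, adjusted p = 1.65e-08) and in SOX17+LSE (log2FC 2.04 ± 0.27, adjusted p = 4.29e-07). In BLSE it was at 10.1 and 15.5 TPM and then 29.7 and 28.5 TPM. This rise was smaller (log2FC 1.16 ± 0.27, adjusted p = 0.00233) and was lost without BLSE 48 h replicate 1 (adjusted p = 0.0995), BLSE 96 h replicate 1 (adjusted p = 0.0273) or BLSE 96 h replicate 2 (adjusted p = 0.018). At 96 h ETV5 stood at 85.4 and 57.3 TPM in SOX17+BLSE, above BLSE (log2FC 1.24 ± 0.27, adjusted p = 0.000219). That call was lost without SOX17+BLSE 96 h replicate 1 (adjusted p = 0.0167). BLSE+IWR1 at 96 h also exceeded BLSE (log2FC 1.56 ± 0.27, adjusted p = 8.74e-06), after lying below it at 48 h (log2FC −1.53 ± 0.27, adjusted p = 3.72e-05).

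Against its starting cells ETV5 rose in SOX17+BLSE at 96 h (log2FC 2.51 ± 0.27, adjusted p = 1.04e-09) and in BLSE at 96 h (log2FC 1.27, adjusted p = 0.000246). The latter was lost without DK20FA replicate 2 (adjusted p = 0.0161). In SOX17+LSE it was already at 37.8 and 35.2 TPM at 24 h, against 12.6 and 10.2 TPM in SOX17+BLSE (log2FC −1.61 ± 0.27, adjusted p = 0.000148). At 96 h SOX17+LSE held 131 and 89.9 TPM. ETV5 was also higher in cjESCs in PESFA, at 49.3 and 55.7 TPM, than in DK20FA, at 14 and 9.31 TPM (log2FC 2.10 ± 0.27, adjusted p = 2.46e-07), and at 51.7 and 44.7 TPM in Pre. It fell from Pre at 12, 24 and 48 h of BLSE+IWR1 (log2FC −1.71, −2.21 and −3.39, largest adjusted p = 2.01e-05). The sums of the fibroblast markers given above for FGF7 were also high in PESFA and Pre. Within each of these conditions the library with the higher sum held less ETV5. It was at 49.3 against 55.7 TPM in PESFA and at 44.7 against 51.7 TPM in Pre. The part of fibroblast RNA in the ETV5 result was not tested. Against Pre the rise at 96 h was 0.86 (adjusted p = 0.00891), lost without any 1 of the 4 libraries (adjusted p up to 0.112) and after median-ratio scaling. The rise from 48 h was called without each library in turn.

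ETV4 stayed low, between 0.24 and 12.9 TPM in all libraries, with 12.4 and 8.19 TPM in DK20FA and 7.62 and 12.9 TPM in PESFA. It fell in BLSE at 96 h to 2.43 and 1.26 TPM (log2FC −1.99 ± 0.41, adjusted p = 0.000137) and in SOX17+BLSE at 48 h to 1.9 and 0.97 TPM (log2FC −2.21 ± 0.41, adjusted p = 4.13e-05). The falls in SOX17+BLSE at 24 h (log2FC −1.66, adjusted p = 0.00211) and 96 h (log2FC −1.66, adjusted p = 0.000828) did not hold for every library left out. The first was lost without DK20FA replicate 1 (adjusted p = 0.0507), SOX17+BLSE 24 h replicate 1 (adjusted p = 0.028) or SOX17+BLSE 24 h replicate 2 (adjusted p = 0.0115). The second was lost without DK20FA replicate 1 (adjusted p = 0.0232) or SOX17+BLSE 96 h replicate 2 (adjusted p = 0.0459). From Pre it fell at 48 h of BLSE+IWR1 (log2FC −1.57, adjusted p = 0.00321), lost without any 1 of the 4 libraries (adjusted p up to 0.0261). At 96 h, when ETV5 was high, ETV4 was at 4.34 and 5.39 TPM in BLSE+IWR1 and the change from 48 h was not called (log2FC 0.66, adjusted p = 0.192).

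**Figure D3:**
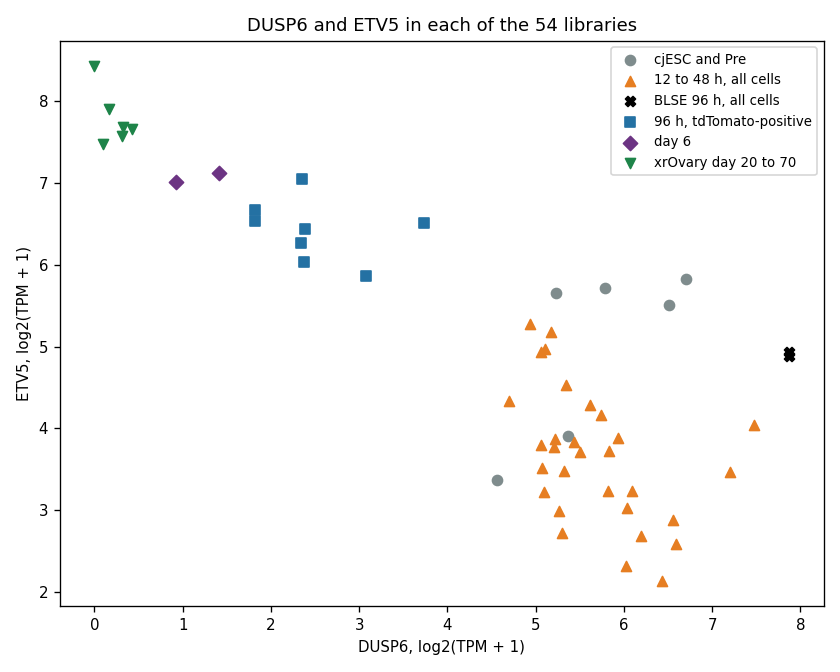
DUSP6 (x axis) against ETV5 (y axis), both as log2(TPM + 1), 1 point for each of the 54 libraries, marked by stage. tdTomato-positive cells at 96 h, day 6 and in xrOvaries lie at low DUSP6 and high ETV5, at 12.3 TPM of DUSP6 or less and 57.3 TPM of ETV5 or more, and BLSE at 96 h lies at 233 TPM of DUSP6 with 28.5 and 29.7 TPM of ETV5.

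Over the 27 condition means of log2(TPM + 1), Pearson's r of DUSP6 was 0.85 with SPRY4, −0.83 with ETV5 and 0.04 with ETV4. FGF8 and SPRY2 had an r of 0.88, and FGF17 and SPRY2 of 0.85, whereas ETV4 and ETV5 had an r of 0.09. These describe conditions that share lines, media and a common sort, and carry no test. Of the other tested genes, those most like DUSP6 over the 27 conditions were LPCAT1 (r = 0.97), DOCK1 (0.97) and ITPRIPL2 (0.96), and those most like ETV5 were AK4 (0.95), IRX1 (0.94) and ULK2 (0.94). For SPRY2 they included TOB2 (0.97) and S100A2 (0.96). For SPRY4 they were TAGLN2 (0.93), UHRF1 (0.91) and ACTR2 (0.91), and for ETV4 MALT1 (0.82), CARD10 (0.79) and GABRD (0.78). For FGF2 they were AP1M2 (0.91), ACOT13 (0.89) and RGS2 (0.88), and for FGF7 AGTR2, ZIC1 and TBX15 (each 0.99). For the FGF8 subfamily they were ATP1A4 (0.96), CASQ1 (0.96) and HRH3 (0.955) beside FGF8, and FAT2 (0.90), AKNAD1 (0.89) and KCNMB2 (0.87) beside FGF17.

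In the courses against the starting cells, calls among the 9 genes were most numerous at 96 h. In BLSE against DK20FA, 0, 2, 4 and 7 of the 9 were called at 12, 24, 48 and 96 h, where 7.41%, 11.7%, 19.8% and 29.5% of all genes were. At 12 h, where none of the 9 was called by limma, 5 had an unadjusted p under 0.05, and at 96 h 2 rose (DUSP6, ETV5) and 5 fell. These 96 h values had a median log2 difference of −1.99 over the 9 genes and −0.08 over all 11197. In SOX17+BLSE against DK20FA the counts were 3, 4, 5 and 7, beside 9.82%, 16.8%, 26.3% and 43.2% of all genes. There at 96 h 6 fell and ETV5 alone rose, with a median log2 difference of −2.23 over the 9 genes and 0.14 over all 11197. In BLSE+IWR1 against Pre they were 2, 3, 6 and 8, beside 6.79%, 9.46%, 19.2% and 40.1%, with FGF7 among them each time. There at 96 h 6 fell, FGF7 included, and FGF2 and ETV5 rose. The median log2 difference was −3.16 over the 9 genes, again with FGF7, and 0.14 over all 11197. Since FGF7 entered the test through PESFA and Pre libraries, its falls from Pre are a description and add no support to these counts. BLSE and SOX17+BLSE share their DK20FA libraries, and the 4 times of each course share 1 start. The total over the SOX17+BLSE course was 19 calls and dropped to 11 without DK20FA replicate 1.

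The late step was examined within each condition after the data had been seen, since Pre and PESFA libraries carried fibroblast marker RNA. From 48 to 96 h, 2 of the 9 genes changed in BLSE, beside 9.43% of all genes, and neither was DUSP6 or SPRY4. In SOX17+BLSE 4 changed (23.6% of all genes), in SOX17+LSE 6 (19.2%), in BLSE+IWR1 5 (33.5%) and in BLSE+IWR1+BMS 5 (31.1%). In each of these 4 conditions ETV5 rose and SPRY2, SPRY4 and DUSP6 fell, and in the 3 others than SOX17+BLSE FGF8 fell too. Over the same step 6 of 6 PGC markers rose in each of the 4 conditions, PRDM1 of the sort reporter among them. Of the 6 mesoderm markers 4 fell in SOX17+BLSE and 5 in the 3 others. The part of these markers in the result was not tested. The log2FC of DUSP6 was −3.15 in SOX17+BLSE (adjusted p = 4.32e-09) and −2.15 in SOX17+LSE (adjusted p = 8.51e-06). It was −4.15 in BLSE+IWR1 (adjusted p = 2.99e-12) and −4.47 in BLSE+IWR1+BMS (adjusted p = 3.51e-13). That of SPRY4 ranged from −1.49 in BLSE+IWR1+BMS to −2.35 in BLSE+IWR1 (largest adjusted p = 1.42e-05). In these 4 conditions the 48 h libraries are all cells and the 96 h libraries are tdTomato-positive cells, so time and sort cannot be told apart. In BLSE+IWR1+BMS the falls of FGF8 and SPRY2 were lost without BLSE+IWR1+BMS 48 h replicate 1 (adjusted p = 0.0819 and 0.0176).

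**Figure D4:**
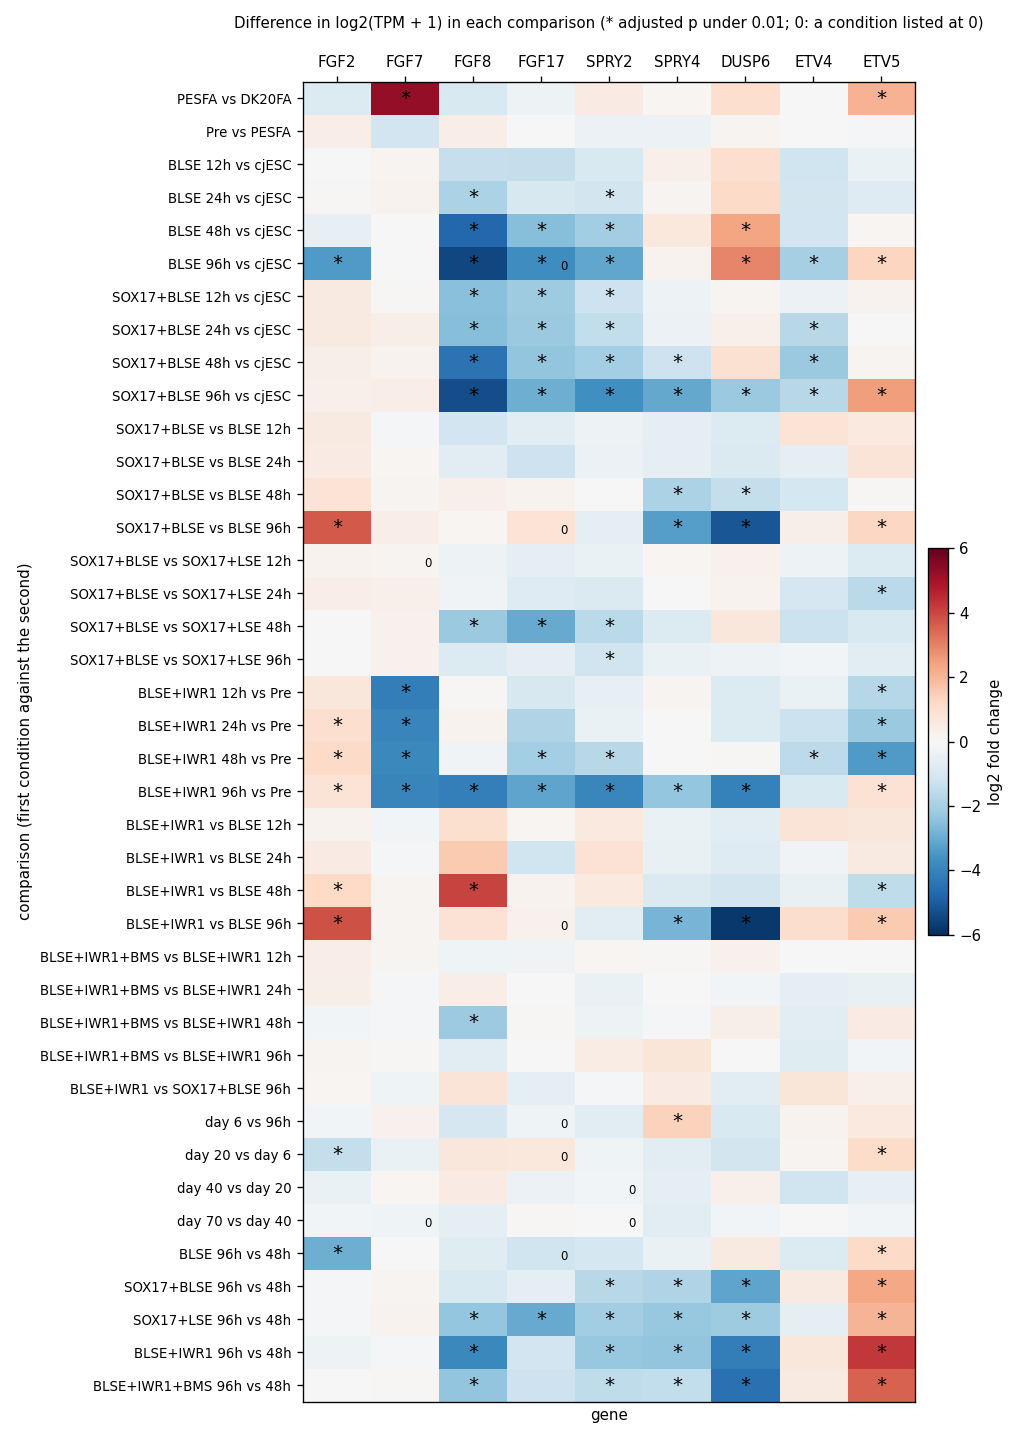
Log2 fold change (colour, red higher and blue lower in the first condition) of the 9 genes (columns) in 40 comparisons (rows), where an asterisk marks an adjusted p under 0.01 and a 0 marks a comparison in which both libraries of a condition were listed at 0. DUSP6 is red in BLSE at 48 and 96 h against cjESC and blue in the comparisons of SOX17+BLSE and BLSE+IWR1 with BLSE at 96 h.

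Between conditions at the same time, SOX17+BLSE against BLSE gave 0, 0, 2 and 4 calls among the 9 genes at 12, 24, 48 and 96 h, beside 2.4%, 7.56%, 16.7% and 45.4% of all genes. With no gene of the 9 called by limma at 12 and 24 h, 5 and 4 had an unadjusted p under 0.05. At 48 h SPRY4 and DUSP6 were lower with SOX17, and at 96 h FGF2 and ETV5 were also higher. SOX17+BLSE against SOX17+LSE gave 0, 1, 3 and 1, beside 0.277%, 2.62%, 8.01% and 7.11%. All 5 were lower with BMP4, and at 12 h 1 gene had an unadjusted p under 0.05. Without SOX17+BLSE 48 h replicate 1 the total of 5 became 3. BLSE+IWR1 against BLSE gave 0, 0, 3 and 4, beside 13.8%, 14.6%, 21.2% and 44.1%. At 12 and 24 h, with 0 called by limma, 1 and 4 genes had an unadjusted p under 0.05. BLSE+IWR1 and SOX17+BLSE at 96 h, the tdTomato-positive cells of the 2 routes, differed in 0 of the 9 genes by limma, beside 6.08% of all genes, and 0 had an unadjusted p under 0.05. The log2 differences there ran from −0.65 ± 0.34 (SE) for DUSP6 to 0.75 ± 0.48 (SE) for FGF8. With 2 libraries a condition this does not show that the routes were alike.

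BMS493 added to BLSE+IWR1 changed 0, 0, 1 and 0 of the 9 genes at 12, 24, 48 and 96 h, beside 0%, 0.0893%, 4.83% and 0.732% of all genes by limma. At an unadjusted p under 0.05 the counts were 0, 0, 1 and 1. The 1 gene was FGF8 at 48 h, at 21.7 and 2.33 TPM against 40.0 and 36.5 TPM without BMS493 (log2FC −2.17 ± 0.48, adjusted p = 0.0028). Its replicates differed by 2.77 on the log2 scale, the widest replicate gap of any of the 9 genes in any condition. In replicate 2 of that condition FGF17, SPRY2, SPRY4 and ETV4 were lower too. The fibroblast markers summed there to 284 TPM against 92.99 TPM in replicate 1. With BMS493 at 48 h, 4 of 6 pluripotency markers were lower (sums of 3265 to 3524 TPM against 5567 to 6442 TPM) and 2 of 6 mesoderm markers higher (2166 to 2228 TPM against 1422 to 1505 TPM). The part of these markers in the result was not tested. The call was lost without BLSE+IWR1 48 h replicate 1 (adjusted p = 0.0227), BLSE+IWR1 48 h replicate 2 (adjusted p = 0.01) or BLSE+IWR1+BMS 48 h replicate 2 (adjusted p = 0.306). Without the last of these the log2FC was −0.79. The effects of SOX17, BMP4 and BMS493 were compared between 48 and 12 h in a test of the difference, which none of the 9 genes passed in limma. Of all genes, 2.46%, 1.26% and 0.0893% passed, and 3, 4 and 1 of the 9 had an unadjusted p under 0.05. Between the media, 2 of the 9 genes were called in PESFA against DK20FA (ETV5 and FGF7, both higher, FGF7 having entered the test through the PESFA and Pre libraries), beside 16.8% of all genes. Pre against PESFA gave 0 by limma, beside 0.304%, and 1 gene, FGF7, had an unadjusted p under 0.05 (log2FC −1.16, adjusted p = 0.019).

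Past 96 h the pattern of the tdTomato-positive cells went on, with DUSP6 and SPRY2 at or near 0, SPRY4 partly retained and ETV5 at its highest. At day 6 SPRY4 was at 73.6 and 78.8 TPM, up from 96 h (log2FC 1.38 ± 0.26, adjusted p = 0.000674), a call lost without BLSE+IWR1 96 h replicate 1 (adjusted p = 0.0147), BLSE+IWR1 day 6 replicate 1 (adjusted p = 0.0113) or BLSE+IWR1 day 6 replicate 2 (adjusted p = 0.0182). It was at 41.5 and 54.7 TPM in xrOvaries at day 20, 38 and 25.3 TPM at day 40 and 19.3 and 19.3 TPM at day 70. ETV5 was at 139 and 128 TPM at day 6 and reached its highest values at day 20, 239 and 343 TPM (log2FC 1.1 ± 0.27, adjusted p = 0.00198). That rise was lost without BLSE+IWR1 day 6 replicate 1 (adjusted p = 0.0129), BLSE+IWR1 day 6 replicate 2 (adjusted p = 0.0244) or xrOvary day 20 replicate 2 (adjusted p = 0.0675), and ETV5 was at 202 and 205 TPM at day 40 and 177 and 190.2 TPM at day 70. DUSP6 was at 1.65 and 0.90 TPM at day 6 and between 0 and 0.34 TPM in the 6 xrOvary libraries. SPRY2 was at 0 and 0.71 TPM at day 6, 0.22 and 0 TPM at day 20, and listed at 0 in the 4 libraries of days 40 and 70.

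FGF2 fell from 108 and 117 TPM at day 6 to 40.7 and 42.5 TPM at day 20 (log2FC −1.41 ± 0.25, adjusted p = 3.67e-05), and no 1 library decided this call. It was at 36.1 and 27.3 TPM at day 40 and 27.6 and 28.7 TPM at day 70. Between day 6 and day 20 stage, medium and the presence of mouse gonadal cells changed together. For FGF2 and ETV5 they cannot be told apart. FGF8 was at 0 and 0.79 TPM at day 6 and at 1.11 and 3.25 TPM at day 40, and FGF17 was listed at 0 in both day 6 libraries. ETV4 was at 5.97 and 5.67 TPM at day 6 and 4.62 and 9.52 TPM at day 20. Of the 9 genes, 1 was called at day 6 against 96 h (2.75% of all genes) and 2 at day 20 against day 6 (20.4%). None was called by limma at day 40 against day 20 (4.6%) or at day 70 against day 40 (2.73%), where 2 and 1 had an unadjusted p under 0.05. Without day 6 replicate 1 the total over these steps dropped from 3 to 1. The xrOvary libraries held 0.23 to 4.53 TPM summed over the 5 gonadal somatic markers in the table and 11.6 to 22.9 TPM over the 8 fibroblast markers, in reads aligned to the marmoset genome.

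**Figure D5:**
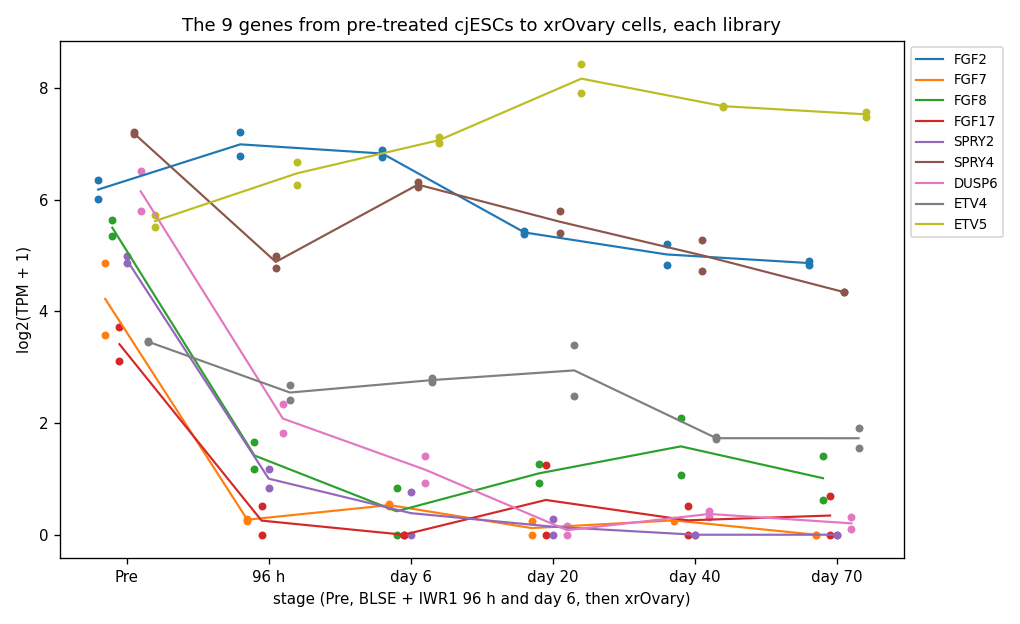
Levels of the 9 genes as log2(TPM + 1) (y axis) at 6 stages (x axis) from Pre through 96 h and day 6 of BLSE+IWR1 to xrOvaries at days 20, 40 and 70, with points for single libraries and lines through condition means. ETV5 climbs from 76.2 and 101 TPM at 96 h to 239 and 343 TPM at day 20, while DUSP6 drops to at most 0.34 TPM.

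The wider pathway was read from a list of 84 further genes, of which 73 were in the table and 61 were tested. In BLSE at 96 h against DK20FA 8 of the 61 rose and 10 fell, beside 29.5% of all genes called. In SOX17+BLSE 15 rose and 17 fell, beside 43.2%, and in BLSE+IWR1 against Pre 10 rose and 14 fell, beside 40.1%. Between SOX17+BLSE and BLSE at 96 h 19 were higher and 15 lower, beside 45.4% of all genes called, and between BLSE+IWR1 and BLSE 14 were higher and 14 lower, beside 44.1%. Nothing particular to the pathway is read from these counts. The median log2 difference of the 61 was −0.01 in BLSE, 0.08 in SOX17+BLSE and 0.02 in BLSE+IWR1, beside −0.08, 0.14 and 0.14 over all genes. Of the 19 tested adaptors and kinases of the cascade, 0 rose and 2 fell in BLSE, 3 rose and 6 fell in SOX17+BLSE, and 1 rose and 4 fell in BLSE+IWR1, to be read beside the same 29.5%, 43.2% and 40.1% of all genes. Of the 14 tested receptors and co-receptors 4 rose and 2 fell, 4 rose and 5 fell, and 6 rose and 3 fell in the same order. From 48 to 96 h, 3 of the 61 rose and 5 fell in BLSE (9.43% of all genes called), 8 and 8 in SOX17+BLSE (23.6%) and 8 and 10 in SOX17+LSE (19.2%). The counts were 10 and 13 in BLSE+IWR1 (33.5%) and 10 and 20 in BLSE+IWR1+BMS (31.1%). Over the germ cell steps, 9 of the 61 rose and 13 fell at day 20 against day 6, beside 20.4% of all genes.

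Receptors for the EGF in the medium differed at 96 h between BLSE, all cells, and the tdTomato-positive cells of SOX17+BLSE and BLSE+IWR1. EGFR, the EGF receptor, went from 4.13 and 5.25 TPM in DK20FA to 113 and 115 TPM in BLSE at 96 h (log2FC 4.35, adjusted p = 5.51e-15). SOX17+BLSE held 6.67 and 10.2 TPM, less than BLSE (log2FC −3.64, adjusted p = 2.73e-13). BLSE+IWR1 held 1.54 and 2.13 TPM, also less than BLSE (log2FC −5.35, adjusted p = 9.05e-18). ERBB2, its partner receptor, fell from DK20FA to SOX17+BLSE at 96 h (log2FC −3.46, adjusted p = 3.87e-15) and from Pre to BLSE+IWR1 (log2FC −3.20, adjusted p = 4.36e-14). At 48 h BLSE+IWR1 had EGFR at 4.62 and 7.78 TPM and DUSP6 at 64.1 and 85.1 TPM. The part of EGFR in the DUSP6 result was not tested. The heparan sulfate proteoglycan GPC3 rose from 23.9 and 26.9 TPM to 660.4 and 731 TPM in SOX17+BLSE (log2FC 4.72, adjusted p = 1.19e-22). It rose from 56.8 and 57.9 TPM to 280.0 and 304 TPM in BLSE+IWR1 (log2FC 2.33, adjusted p = 2.45e-14). GPC3 rose in BLSE at 96 h too, to a mean of 122 TPM (log2FC 2.20, adjusted p = 9.98e-14). It was higher in SOX17+BLSE than in BLSE (log2FC 2.52, adjusted p = 1.18e-15). Its relative GPC4 fell in BLSE (log2FC −2.83, adjusted p = 6.86e-17), SOX17+BLSE (log2FC −2.03, adjusted p = 3.66e-13) and BLSE+IWR1 (log2FC −4.24, adjusted p = 1.09e-21). FGFR3, an FGF receptor, was at 1.85 and 0.97 TPM in BLSE at 96 h and was higher in SOX17+BLSE, at 12.2 and 10.7 TPM (log2FC 2.39, adjusted p = 1.25e-08).

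DUSP5, a nuclear ERK phosphatase, was present at stages at which DUSP6 was near 0. It was at 83.1 and 121 TPM in BLSE+IWR1 at 96 h and 199 and 232 TPM at day 6 (log2FC 1.09, adjusted p = 0.00274), and at 125 and 109.6 TPM at day 20. DUSP5 in DK20FA was at 101 and 93.7 TPM and in BLSE at 96 h at 131 and 169.5 TPM. EGR1, an immediate-early gene of ERK, rose from DK20FA to SOX17+BLSE at 96 h (log2FC 2.55, adjusted p = 6.84e-07), where DUSP6 fell. The rise of EGR1 was already called there at 12, 24 and 48 h (log2FC 2.45, 2.65 and 2.90, largest adjusted p = 1.22e-05). EGR1 also rose in BLSE at 12 h (log2FC 1.58, adjusted p = 0.0037) and 48 h (log2FC 1.93, adjusted p = 0.000145). EGR1 (log2FC 2.56, adjusted p = 2.95e-06), EGR3 (log2FC 3.27, adjusted p = 2.36e-05) and FOS (log2FC 1.94, adjusted p = 0.00084) were higher in PESFA than in DK20FA, as ETV5 was. So were 7 of the 8 fibroblast markers, with the sums given above, and their part in these differences was not tested. DUSP6 was at 36.5 and 103 TPM in PESFA, where the difference was not called (log2FC 1.01, adjusted p = 0.0275). MYC, which ERK and WNT signalling both induce, was at 256 and 274 TPM in DK20FA and 269.6 and 236 TPM in BLSE at 96 h. It fell to 20.1 and 19.4 TPM in SOX17+BLSE (log2FC −3.68, adjusted p = 2.06e-21). FGF13, an intracellular FGF relative that is not secreted, fell in BLSE at 96 h (log2FC −2.74, adjusted p = 3.6e-12). It was higher in SOX17+BLSE (log2FC 3.62, adjusted p = 1.03e-15) and BLSE+IWR1 (log2FC 3.02, adjusted p = 1.54e-13) than in BLSE.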

How the data were processed

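RNA-seq of 54 libraries (27 conditions, 2 replicates) was analysed. Per the study's methods, the authors used STAR against Callithrix_jacchus_cj1700_1.1, dropped alignments with a mapping quality of 1 or less, and quantified with RSEM. The deposited values are TPM with 2 decimals for 14812 genes. TPM hold no read totals: depth is unknown, and no counting interval can be given. The filter on low values, log2(TPM + 1) reaching 1.5 in any library, left 11197 genes. The linear model, run in limma 3.58.1 under R 4.3.3, held 1 term for each condition (27 residual degrees of freedom, prior variance with a trend on the mean). Each contrast was tested on both sides, and p-values were adjusted by Benjamini-Hochberg within it, with a call at 0.01. The pseudocount of 1 understates fold changes of low genes. The study's edgeR test needs counts and was not used. The fit was tested on simulated data. No pair of libraries was identical (0 pairs), and 0 columns belonged to other samples. With 2 libraries against 2, a permutation test of 1 gene cannot reach the threshold.

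Named genes are the members, up to 3 rising and 3 falling genes of the wider pathway list per comparison among those passing, and the 3 genes most like each member, of which 1 is not reported here. The members and lists were chosen with earlier results of these data known, and the comparisons of 96 h with 48 h were added after seeing the data. Levels of named pathway genes in other conditions are given beside them. Whether same-numbered replicates deviate together was checked over 351 pairs of conditions (r −0.27 to 0.29, median 0.01), and the numbers were not taken to pair samples. Results were recomputed with a pseudocount of 0.1, without the filter, with a fit of only the libraries compared, a replicate block, median-ratio scaling, quantile normalization, no trend, a call that also needs more than a 4-fold difference and a mean log2 value above 1.5, and leaving out each library. Gene overlaps come from RefSeq for assembly calJac240, another build than the authors', of which no coordinates are used.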

Additional observations from a re-analysis of the deposited data

How the results depend on the processing

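Counts are of calls among the 9 genes, summed over the times of a comparison. Those against Pre and between media include FGF7, which entered the test through PESFA and Pre libraries. No call changed direction under any alternative. Fitting only the libraries compared, which leaves few residual degrees of freedom, lowered the counts from 2 to 0 between media, 13 to 4 for BLSE, 19 to 6 for SOX17+BLSE against DK20FA, 5 to 0 for BMP4, 19 to 6 for BLSE+IWR1 against Pre, 7 to 4 for BLSE+IWR1 against BLSE, 1 to 0 for BMS493, 3 to 0 over the germ cell steps and 22 to 3 for 96 h against 48 h, so these calls rest on the spread pooled over conditions. A pseudocount of 0.1 gave 12 calls for SOX17+BLSE against DK20FA, 1 for BMP4 and 0 for BMS493, and without the filter Pre against PESFA had 1. Needing more than 4-fold and a mean log2 value above 1.5 gave 3 of 6 calls for SOX17+BLSE against BLSE, 2 for BMP4, 12 for BLSE+IWR1 against Pre, 4 for BLSE+IWR1 against BLSE and 0 over the germ cell steps. The cause was not tested in these cases. Leaving out each library in turn gave 11 to 19 calls for SOX17+BLSE against DK20FA (11 without DK20FA replicate 1), 3 to 5 for BMP4 (3 without SOX17+BLSE 48 h replicate 1), 0 to 1 for Pre against PESFA (1 without PESFA replicate 1), 0 to 1 for BMS493, 1 to 3 over the germ cell steps (1 without day 6 replicate 1) and 0 to 1 for the change of the BMS493 effect (1 without BLSE+IWR1+BMS 48 h replicate 1). When a condition is left with 1 library, that library is assumed to vary like the others. A fit with the replicate number as a block moved no count (22 stayed 22 for 96 h against 48 h), and the numbers were not taken to pair samples. Of the 97 single calls, all 97 held with the block, 95 with median-ratio scaling and 95 with quantile normalization, 92 without the trend, 89 without the filter, 76 with a pseudocount of 0.1, 64 under the 4-fold rule and 26 when only the libraries compared were fitted. Median-ratio scaling moved the median of all genes by −0.24 on the log2 scale for SOX17+BLSE against BLSE at 96 h and by −0.20 for BLSE+IWR1 against BLSE at 96 h, and the FGF2 and ETV5 differences of BLSE+IWR1 at 96 h against Pre (0.59 and 0.64 with it) were no longer called. The depth of each library is unknown, so values near 0 cannot be given a limit.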

Other observations

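Other members of the pathway list, taken by the same rule of the 3 largest passing changes in each direction, moved at the last time as well. SDC2, a heparan sulfate proteoglycan of the cell surface, was higher in BLSE at 96 h than in DK20FA (log2FC 2.07, adjusted p = 2.13e-08) and lower in SOX17+BLSE than in BLSE (log2FC −2.72, adjusted p = 2.08e-11). FLRT3, a membrane protein that binds FGF receptors, fell in BLSE at 96 h (log2FC −3.48, adjusted p = 1.48e-11) and was lower in PESFA than in DK20FA (log2FC −2.77, adjusted p = 1.56e-08). FGF10, a mesenchymal ligand of the FGF7 subfamily, was higher in SOX17+BLSE at 96 h than in DK20FA, at a mean of 4.75 TPM (log2FC 2.36, adjusted p = 1.54e-09). KIT, the receptor of the SCF in the induction media, rose from a mean of 0.16 TPM in Pre to 3.25 TPM in BLSE+IWR1 at 96 h (log2FC 1.87, adjusted p = 1.41e-09). These cells were sorted at 96 h in SOX17+BLSE and BLSE+IWR1, and time and sort cannot be told apart.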
